A study of Mus musculus with 8 samples.

Results

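WNT signalling was followed across the transcriptome of white adipocytes through 52 protein-coding genes out of the 30387 genes of the deposited table. They were chosen by symbol. Among them are the Wnt ligands, the Frizzled receptors and their LRP co-receptors, and the R-spondins with the Lgr receptors that bind them. The others are the secreted antagonists of the Sfrp and Dkk families with Wif1, beta-catenin (Ctnnb1), the scaffolds Axin1 and Axin2, and TCF/LEF transcription factors. Sfrp5 was left out by the same rule.

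White adipocytes had been isolated from the epididymal fat of male mice, and their RNA was sequenced in 8 libraries that form 4 groups of 2. WT animals were wild-type littermates, whereas KO animals (Ad-Yap/Taz-KO) carried floxed alleles of Yap1 and of Wwtr1, the gene of TAZ, together with Cre recombinase expressed from the adiponectin promoter, so that the deletion arises as adipocytes form and is limited to cells that use this promoter. Animals of each genotype received either normal chow (NC) or a high-fat diet (HFD) for 4 weeks, which gave the groups WT NC, KO NC, WT HFD and KO HFD. The labels give week 5 as the start of the diets, and the study's methods give a slightly different age. YAP and TAZ are transcriptional co-activators that reach DNA through TEAD factors, and the comparisons asked how their loss alters adipocytes on either diet.

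WNT proteins are lipid-modified ligands that bind a Frizzled receptor together with Lrp5 or Lrp6. In the canonical branch this stops the Axin complex from marking beta-catenin for degradation, and beta-catenin then works with TCF/LEF factors on target genes, of which Axin2 is the classical feedback example. R-spondins, bound by Lgr receptors, keep Frizzled proteins at the cell surface by removing the ligases Znrf3 and Rnf43, whereas Sfrp and Dkk proteins block ligands or co-receptors from outside. In fat, canonical WNT signalling is known for holding progenitors back from becoming adipocytes, and Wnt5a mainly for signalling without beta-catenin.

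The values are normalized counts, that is, reads on the exons of a gene, scaled by the size factor of the library and rounded. The libraries held 14.0 to 22.3 M reads on genes, and 1 read was estimated at 0.795 to 1.135 normalized counts. A value listed at 0 thus means that no read was counted. By counting error alone, it leaves room for an expected level of up to 3 reads. Yap1 had 2776 and 2717 normalized counts in WT NC, 1669 and 1699 in KO NC, 2468 and 2333 in WT HFD and 1549 and 2068 in KO HFD. Wwtr1 had 5594 and 4743 in WT NC, 2441 and 1957 in KO NC, 7121 and 6807 in WT HFD and 2060 and 2707 in KO HFD. Every KO library was therefore below every WT library for both targeted genes, and reads of both remained. In the limma tests described below, Wwtr1 was called lower in KO on both diets and Yap1 on NC only. That Yap1 call was lost under 3 alternative settings, averaging the WT HFD libraries among them. On HFD Yap1 had a log2 fold change of -0.42 (limma adjusted p = 0.059), from -0.46 to -0.037 under alternative settings. Adipocyte markers were abundant throughout, and their summed level was 207613 and 110567 in KO HFD against 273319 to 424899 in the other groups. The epididymal genes Crisp1 and Adam7 were listed at 0 except in the second KO HFD library, which had 11 of each, and Rnase10 had 21 and 26 in KO HFD and 0 to 11 in the other libraries. Of the replicate pairs, the WT HFD libraries resembled each other most among genes with high counts. The squared difference between replicates was divided by its variance under Poisson noise. Among genes with a mean of 1000 to 5000, the median of this ratio was 2.56 in WT HFD against 7.74 to 25.3 elsewhere. For genes with a mean of 5 to 20 it was 2.61 in WT HFD and 2.54 to 3.84 elsewhere. Noise above Poisson was thus present at low counts in every group, and in WT HFD alone this median did not grow with the level. The values therefore do not show that the WT HFD libraries are separate samples. They were kept apart as labelled, and calls that end when they are averaged are named as such. With them averaged, 9 of the 11 calls between KO and WT on HFD, 0 of 2 on NC, 3 of 10 between the diets in WT and 2 of 5 in the interaction were left.

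Each comparison was tested with limma across 18800 genes, those whose mean over the libraries reached 5, and a gene counted as called where its Benjamini-Hochberg adjusted p did not exceed 0.05 and its log2 fold change was 0.59 or more, up or down. Of the WNT genes 35 passed that filter. They were 7 of 18 ligands, 9 of 10 Frizzled receptors, both LRP co-receptors, 2 of 4 R-spondins, all 3 Lgr receptors, 5 of 8 secreted antagonists, all 4 TCF/LEF factors, Ctnnb1 and both Axin genes. The other 17 stayed below a mean of 5, with no single value above 11. Their highest values were 11 for Wnt3, 9 for Wnt7b, 8 for Rspo2, 7 for Wnt7a and Wnt9b, 6 for Dkk1, 5 for Wnt1, Wnt2, Wnt6, Wnt8a and Wif1, 4 for Wnt10a and Dkk4, 3 for Wnt10b and Wnt16, and 1 for Fzd10 and Rspo4. Wnt10b, a ligand known for blocking adipogenesis, thus lay at the level that a few reads give in every library. With 2 libraries a group, an exact two-sided permutation test of a single gene cannot go below p = 0.333, so all tests here borrow the spread of other genes. The study describes the libraries of a group as separate mice, and p-values measure the spread between them.

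Promoters are shown for 4 genes that differed between KO and WT on HFD, the receptors Fzd4 and Lgr4, the feedback gene Axin2 and the antagonist Sfrp2, because YAP and TAZ act through TEAD sites and Axin2 is a known target of TCF/LEF factors. Each is the 250 bases before the RefSeq start of transcription in GRCm38.p6, read 5′ to 3′ on the plus strand of the gene. Both strands were searched for the core of the TEAD motif, which reads GGAATG, and the core of the motif that TCF/LEF factors bind, which reads CTTTGAT, and capitals mark the matches. The windows lie at chr7:89404116-89404365 for Fzd4, chr2:109917397-109917646 for Lgr4, chr11:108920099-108920348 for Axin2 and chr3:83766071-83766320 for Sfrp2, and all are on the plus strand.
Fzd4: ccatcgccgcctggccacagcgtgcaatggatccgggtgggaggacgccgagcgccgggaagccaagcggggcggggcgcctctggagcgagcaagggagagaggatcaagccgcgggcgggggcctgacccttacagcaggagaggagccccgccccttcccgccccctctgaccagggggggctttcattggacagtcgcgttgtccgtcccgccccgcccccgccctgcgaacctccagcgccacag
Lgr4: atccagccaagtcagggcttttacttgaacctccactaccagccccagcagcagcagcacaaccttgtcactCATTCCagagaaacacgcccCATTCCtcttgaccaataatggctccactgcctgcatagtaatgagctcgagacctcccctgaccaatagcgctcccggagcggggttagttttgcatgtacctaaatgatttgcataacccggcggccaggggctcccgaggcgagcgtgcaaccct
Axin2: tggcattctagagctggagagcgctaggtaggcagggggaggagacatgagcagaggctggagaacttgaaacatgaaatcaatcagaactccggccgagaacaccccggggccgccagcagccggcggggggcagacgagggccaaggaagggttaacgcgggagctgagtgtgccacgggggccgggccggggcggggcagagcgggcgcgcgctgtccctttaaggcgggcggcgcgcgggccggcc
Sfrp2: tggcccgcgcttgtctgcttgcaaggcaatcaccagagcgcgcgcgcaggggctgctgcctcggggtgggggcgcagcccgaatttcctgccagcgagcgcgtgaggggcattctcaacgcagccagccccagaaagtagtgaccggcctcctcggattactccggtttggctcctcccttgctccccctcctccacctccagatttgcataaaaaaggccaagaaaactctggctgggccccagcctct

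Lgr4 held the TEAD core at 2 places, starting 178 and 158 bases before the start of transcription and both on the minus strand, where the printed strand reads CATTCC, and Fzd4, Axin2 and Sfrp2 held neither motif. Windows were found for 34 of the 52 genes, 43 windows in all. Of the genes called between KO and WT on HFD, Wnt5a, Lrp5, Lrp6, Sfrp1 and Rspo3 had none. The windows of Rspo1 and Wnt4, not shown, held neither motif. The TEAD core occurred in 1 of these 43 windows (2.33%) and in 12.6% of the 32851 mouse windows of the same length. The TCF/LEF core occurred in 2 of the 43 (4.65%), those of Wnt11 and Wnt5b, and in 3.21% of all windows. A match describes letters in this window only.

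Per kilobase of exon, which allows genes to be compared, Fzd4 and Ctnnb1 were the most abundant of the 52. Averaged over the 8 libraries, Fzd4 had 1128 normalized counts per kb and Ctnnb1 977, followed by Lrp6 with 335. Lgr4 (104 to 473), Axin1 (191 to 227), Tcf7l2 (152 to 299) and Lrp5 (128 to 303) overlapped, and their order turned with the group. In WT HFD the group means were 449 for Lgr4 and 160 for Tcf7l2, and in KO HFD 125 and 168. Fzd4 ranged from 383 to 2068 per kb across libraries and overlapped with Ctnnb1, which ranged from 852 to 1069. Among the Frizzled receptors Fzd4 stood first in every library, since the highest value of the next receptor, Fzd7, was 172 per kb. Fzd7 (101 to 172 per kb), Fzd5 (83.0 to 106) and Fzd1 (68.1 to 114) overlapped in range. Fzd7 was above Fzd5 in every library, while the place of Fzd1 changed with the library. Wnt5a had the highest mean level of the ligands, 43.8 per kb, followed by Wnt2b with 16.5 and Wnt11 with 16.1, whose ranges overlapped.

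**Figure D1:**
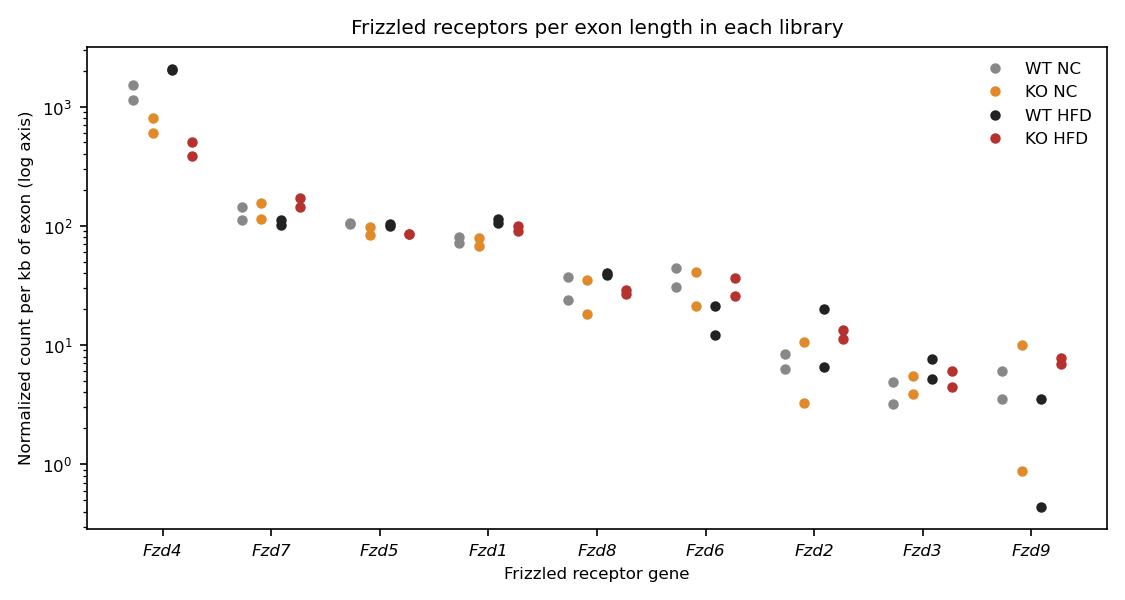
Normalized counts per kb of exon (log axis) of the 9 Frizzled receptor genes that passed the filter; each point is 1 library and colours mark the 4 groups. Fzd4 lies above the other receptors in every library, with its lowest value, 383, in KO HFD.

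On HFD, the receptors Fzd4, Lgr4, Lrp5 and Lrp6, the feedback gene Axin2 and the ligand Wnt5a were lower in KO than in WT adipocytes. The secreted antagonists Sfrp1 and Sfrp2, the R-spondins Rspo1 and Rspo3 and the ligand Wnt4 were higher. That is 5 higher (14.3%) and 6 lower (17.1%) of the 35 genes tested, against 17.1% higher and 15.1% lower among all 18800 genes, so the WNT genes were called about as often as genes in general. Their median log2 fold change was 0.07 against 0.09 for all genes. The libraries also differed in cell type markers: in KO HFD all 10 macrophage markers and 8 of 10 fibroblast and progenitor markers rose and 9 of 10 adipocyte markers fell. The part of this in the WNT results was not tested, and in such bulk samples fewer cells of a type and less RNA per cell cannot be told apart.

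Fzd4, a receptor for WNT ligands and for norrin, was the member with the largest fall. It lies in GRCm38 on chromosome 7 from 89404355 to 89413134 (ENSMUSG00000049791). Its normalized counts were 7555 and 10174 in WT NC, 4000 and 5385 in KO NC, 13670 and 13895 in WT HFD and 3399 and 2577 in KO HFD. Every KO library was below every WT library. On HFD it was 4.61-fold lower in KO by group means, a log2 fold change of -2.22 ± 0.20 (SE; limma adjusted p = 4.8e-06). The other 8 tested Frizzled genes gave no call in any comparison. Fzd7 had 458 and 507 in WT HFD and 780 and 654 in KO HFD (log2 fold change 0.57 ± 0.21, limma adjusted p = 0.051), and it was called higher after scaling to the same total (0.95) and after quantile normalization (0.65). Fzd6, with 212 and 149 in WT NC and 103 and 58 in WT HFD, passed the fold limit between the diets in WT and missed the limit on p (log2 fold change -1.19 ± 0.40, limma adjusted p = 0.053), and it was called under 7 of the other fits.

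The co-receptors moved in the same direction as Fzd4 on HFD. Lrp5 (chromosome 19, 3584828 to 3686564) had 2094 and 2042 in WT NC, 1558 and 1464 in KO NC, 2564 and 2951 in WT HFD and 1243 and 1408 in KO HFD. It was 2.08-fold lower in KO HFD than in WT HFD (log2 fold change -1.06 ± 0.15, limma adjusted p = 0.00020). Lrp6 (chromosome 6, 134446476 to 134566965) had 3558 and 4113 in WT NC, 3789 and 3413 in KO NC, 7151 and 7166 in WT HFD and 3765 and 3686 in KO HFD. Only WT HFD stood apart, and Lrp6 was 1.92-fold lower in KO HFD than there (log2 fold change -0.94 ± 0.14, limma adjusted p = 0.00035). Scaled to the same total, the fall of Lrp6 was 0.56 on the log2 scale and was not called.

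Lgr4 is the R-spondin receptor with the highest level in these cells, and of the promoter windows found only its window held the TEAD core. It lies on chromosome 2 from 109917647 to 110014257 (ENSMUSG00000050199). Its counts were 1345 and 1522 in WT NC, 1015 and 1092 in KO NC, 2785 and 2494 in WT HFD and 857 and 614 in KO HFD, again with every KO library below every WT library. On HFD Lgr4 was 3.59-fold lower in KO (log2 fold change -1.86 ± 0.18, limma adjusted p = 9.4e-06). Lgr5 (20 to 48) and Lgr6 (0 to 24) were called in no comparison.

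The R-spondins that Lgr receptors bind moved the other way. Rspo3 had 97 and 43 in WT NC, 74 and 108 in KO NC, 4 and 13 in WT HFD and 44 and 63 in KO HFD. The WT HFD libraries were the low ones, and on HFD Rspo3 was 6.29-fold higher in KO (log2 fold change 2.68 ± 0.61, limma adjusted p = 0.0048). Rspo1 had 66 and 20 in WT NC, 76 and 62 in KO NC, 24 and 23 in WT HFD and 54 and 126 in KO HFD. It was 3.83-fold higher in KO on HFD (log2 fold change 1.77 ± 0.59, limma adjusted p = 0.036), and it was no longer called when the WT HFD libraries were averaged (adjusted p = 0.13), without the filter on low values, after quantile normalization, or without either WT HFD library or the second KO HFD library, in which it was highest. Leaving out each library moved the log2 fold change of Rspo1 between 1.17 and 2.37, and that of Rspo3 from 1.94 without the first to 3.42 without the second WT HFD library. Rspo3 shares 13.1% of its exon bases with a gene on the other strand, and whether counting used the strand is not stated.

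Of the secreted antagonists, 2 of the 5 tested were higher in KO than in WT on HFD, as were 17.1% of all genes. Sfrp1, a decoy that binds WNT ligands (chromosome 8, 23411502 to 23449632), had 416 and 477 in WT NC, 464 and 193 in KO NC, 107 and 92 in WT HFD and 345 and 666 in KO HFD. Both WT HFD libraries were below all others, and Sfrp1 was 5.08-fold higher in KO HFD than in WT HFD (log2 fold change 2.26 ± 0.38, limma adjusted p = 0.00068). Sfrp2, of the same family (chromosome 3, 83766321 to 83774316), had 55 and 59 in WT NC, 91 and 142 in KO NC, 11 and 40 in WT HFD and 104 and 200 in KO HFD. It was 5.96-fold higher in KO on HFD (log2 fold change 2.71 ± 0.56, limma adjusted p = 0.0025), from 1.83 without the first to 3.60 without the second WT HFD library. Sfrp2 shares 16.1% of its exon bases with a gene on the other strand. Dkk2 and Dkk3, of the family whose founder Dkk1 blocks Lrp5 and Lrp6, had 6 and 6, and 21 and 5, in WT HFD and 28 and 37, and 40 and 37, in KO HFD. Neither was called (log2 fold changes 2.25 ± 1.15 and 1.78 ± 0.73, limma adjusted p = 0.15 and 0.078). Dkk2 was called higher in the fit of the 2 HFD groups alone and without either KO NC library. Dkk3 was called higher after scaling to the same total and without the first WT HFD library (2.72), and its value was 0.84 without the second. Sfrp4 (0 to 24) was called in no comparison.

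The ligands split. Wnt5a (chromosome 14, 28504750 to 28527447) had 273 and 328 in WT NC, 144 and 167 in KO NC, 659 and 668 in WT HFD and 216 and 289 in KO HFD. On HFD it was 2.63-fold lower in KO (log2 fold change -1.40 ± 0.23, limma adjusted p = 0.00053). Wnt4, a ligand known from gonad and kidney development, had 52 and 27 in WT NC, 66 and 48 in KO NC, 35 and 24 in WT HFD and 66 and 90 in KO HFD. It was 2.64-fold higher in KO HFD (log2 fold change 1.38 ± 0.49, limma adjusted p = 0.046), a call that 7 of 11 alternative settings ended, WT HFD averaged among them, as did leaving out any 1 of the 4 HFD libraries. Wnt8b had 71 and 67 in WT HFD and 23 and 11 in KO HFD, groups that do not overlap, and it was not called (log2 fold change -2.04 ± 0.80, limma adjusted p = 0.064), except with a pseudocount of 8, after quantile normalization, in the fit of the 2 HFD groups alone and without the first WT NC library.

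Inside the cell, Axin2 was lower in KO than in WT on HFD, and beta-catenin was not called. Ctnnb1 ranged from 4426 to 5551 over the 8 libraries, with 5120 and 5551 in WT HFD and 4691 and 4499 in KO HFD. Its log2 fold change on HFD was -0.21 ± 0.15 (limma adjusted p = 0.29, 95% interval -0.54 to 0.11), and its sign turned under 2 scalings (0.17 after scaling to the same total, 0.18 after quantile normalization). Axin2 (chromosome 11, 108920349 to 108950783) had 685 and 1082 in WT NC, 440 and 696 in KO NC, 782 and 811 in WT HFD and 273 and 278 in KO HFD. The KO HFD libraries were the lowest of all, and Axin2 was 2.89-fold lower there than in WT HFD (log2 fold change -1.53 ± 0.25, limma adjusted p = 0.00057). Axin1, its constitutive relative, had 860 and 866 in WT HFD and 805 and 811 in KO HFD (log2 fold change -0.09 ± 0.15, limma adjusted p = 0.67), a value that also changed sign under both scalings (0.29 and 0.027). Of the TCF/LEF factors, 0 of 4 were called by limma on HFD, and Tcf7, with 71 and 58 in WT HFD and 110 and 130 in KO HFD, had an adjusted p of 0.065 (log2 fold change 0.89 ± 0.35) and was the 1 factor with an unadjusted p under 0.05 (limma unadjusted p = 0.025), and it was called without either KO NC library. Scaled to the same total, Tcf7 and Tcf7l1 were called higher (log2 fold changes 1.27 and 0.76), and 10 WNT genes were higher and 5 lower, under a scaling that moved the median of all genes from 0.09 to 0.47.

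**Figure D2:**
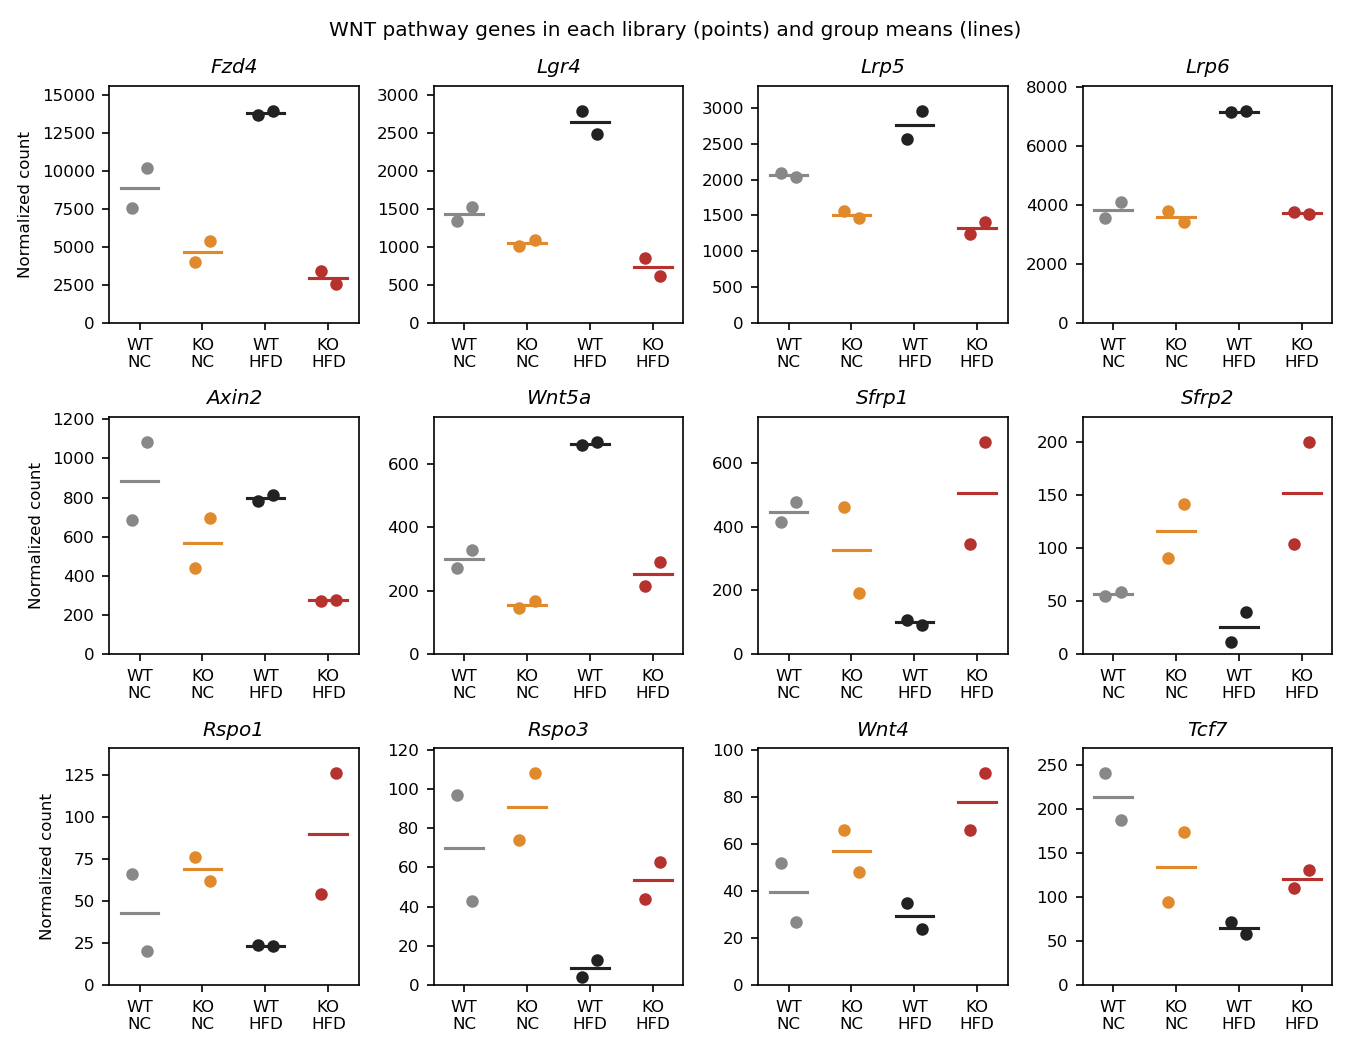
Normalized counts of 12 WNT pathway genes; points are the 2 libraries of each group and lines the group means, with every axis starting at 0. Fzd4, Lgr4, Lrp5, Axin2 and Wnt5a were lowest in KO libraries, while Sfrp1 and Rspo3 were lowest in WT HFD, and Lrp6 was high only in WT HFD.

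On NC, Wnt5a and Fzd4 were lower in KO and no WNT gene was called higher. Among markers, limma called all 10 of macrophages higher there and 0 of the 10 of adipocytes, with 0 at an unadjusted p under 0.05. Of the 7 endothelial markers 0 were called, but 6 were lower at an unadjusted p under 0.05, and their sum in KO was 0.650 of that in WT. Of the 6 smooth muscle and pericyte markers 0 were called and 2 were lower at an unadjusted p under 0.05, with a sum of 0.619 of that in WT. The part of these markers in the falls of Wnt5a and Fzd4 was not tested. The 2 of 35 (5.71%) compare with 1.5% lower and 3.21% higher among all genes. Fzd4 was 1.89-fold lower (log2 fold change -0.92 ± 0.20, limma adjusted p = 0.018) and Wnt5a 1.93-fold lower (-0.94 ± 0.23, limma adjusted p = 0.032). Both calls were lost without the filter on low values, in a fit of the 2 NC groups alone, with the WT HFD libraries averaged, and without the second WT NC, the first KO NC or either WT HFD library. The Wnt5a call was also lost without the first WT NC or the second KO NC library. Lrp5, Axin2 and Lgr4 had log2 fold changes of -0.45 ± 0.15, -0.64 ± 0.25 and -0.44 ± 0.18 (limma adjusted p = 0.13, 0.21 and 0.23). For Lrp6 the interval of the difference was -0.40 to 0.22 around a log2 fold change of -0.09. The antagonists and R-spondins gave log2 fold changes of -0.57 ± 0.38 for Sfrp1, 0.98 ± 0.56 for Sfrp2, 0.89 ± 0.59 for Rspo1 and 0.46 ± 0.61 for Rspo3, none of them called. The value for Rspo1 was 1.73 without the first and 0.056 without the second WT NC library, and that for Sfrp1 was -1.20 without the first and 0.059 without the second KO NC library.

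**Figure D3:**
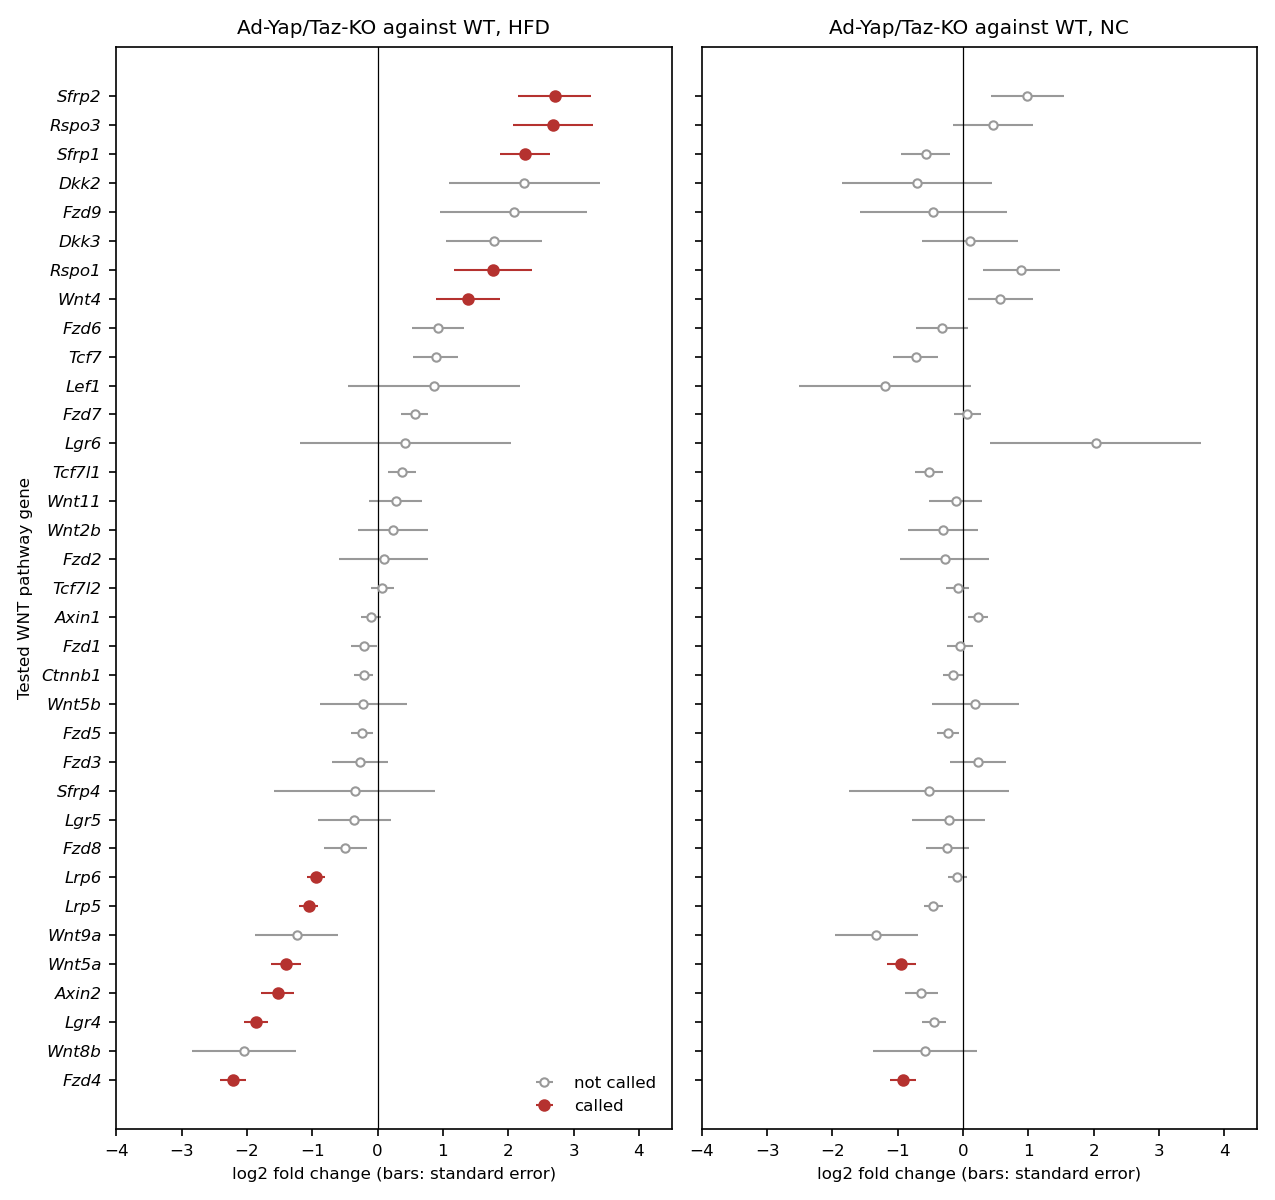
Log2 fold changes of KO against WT on HFD (left) and on NC (right) for the 35 tested WNT genes, ordered by the HFD value; bars are standard errors and filled points are called genes. There are 11 called genes on HFD and 2, Fzd4 and Wnt5a, on NC.

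In WT adipocytes the ligands Wnt8b and Wnt5a and the receptors Lrp6, Lgr4 and Fzd4 rose on HFD. The R-spondin Rspo3, the antagonist Sfrp1 and the transcription factors Tcf7, Tcf7l1 and Tcf7l2 fell. Markers moved as well: 9 of 10 macrophage, 5 of 7 endothelial, 4 of 10 fibroblast and progenitor and 2 of 4 lymphocyte markers were called lower on HFD in WT. Of the 6 smooth muscle and pericyte markers 3 were called lower and 1 higher (Acta2), and of the 10 adipocyte markers 1 was called lower and 2 higher. Their part in the WNT results was not tested. The WNT calls are 5 (14.3%) in each direction, against 8.74% higher and 9.22% lower among all genes. Wnt5a was 2.21-fold higher on HFD (log2 fold change 1.15 ± 0.23, limma adjusted p = 0.0059) and Lrp6 1.87-fold (0.90 ± 0.14, adjusted p = 0.0019). Lgr4 was 1.84-fold higher (0.88 ± 0.18, adjusted p = 0.0068) and Fzd4 1.55-fold (0.65 ± 0.20, adjusted p = 0.037). The Fzd4 call was lost under 5 alternatives, among them no filter on low values, quantile normalization and the replicate block. Its value ran from 0.44 to 0.87 when each library was left out. Wnt8b had 4 and 18 in WT NC against 71 and 67 in WT HFD (log2 fold change 2.84 ± 0.80, limma adjusted p = 0.027). The change ran from 1.88 without the first to 3.81 without the second WT NC library. In KO NC Wnt8b had 5 and 6.

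The falls on HFD in WT, called for 9.22% of all genes, included 3 of the 4 TCF/LEF factors. Tcf7 had 240 and 187 in WT NC, 94 and 173 in KO NC, 71 and 58 in WT HFD and 110 and 130 in KO HFD (WT log2 fold change -1.71 ± 0.35, limma adjusted p = 0.0067). Tcf7l1 had 430 and 537 in WT NC and 291 and 275 in WT HFD (-0.76 ± 0.21, adjusted p = 0.027). Tcf7l2, a factor widely expressed in adipocytes, had 2626 and 1935 in WT NC and 1334 and 1473 in WT HFD (-0.69 ± 0.18, adjusted p = 0.019). In KO, Tcf7l1 had 344 and 322 on NC and 323 and 418 on HFD, and Tcf7l2 had 1931 and 2354 on NC and 1473 and 1479 on HFD. Sfrp1 was 4.49-fold lower on HFD in WT (-2.16 ± 0.38, adjusted p = 0.0033) and Rspo3 8.24-fold lower (-2.97 ± 0.61, adjusted p = 0.0070), the latter from -2.23 without the first to -3.72 without the second WT HFD library. Counting the WT HFD libraries as 1 sample left 3 of the 10 calls (Rspo3, Sfrp1 and Lrp6). Leaving out the first WT NC, the first WT HFD or the second WT HFD library left 2, 3 and 3 of the 10, with Sfrp2 added in the last, and scaling to the same total took away the rises of Lrp6, Lgr4 and Fzd4.

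In KO adipocytes limma called 0 of the 35 genes between HFD and NC, with 6 at an unadjusted p under 0.05, while 0.383% of all genes were called higher and 0.691% lower. Axin2 had the smallest p (log2 fold change -1.0 ± 0.25, limma adjusted p = 0.076). Fzd4 (-0.65 ± 0.20, adjusted p = 0.14) and Lgr4 (-0.54 ± 0.18, adjusted p = 0.17) had signs opposite to those in WT, and Wnt5a had the same sign (0.68 ± 0.23, adjusted p = 0.17). Without the first KO NC library Axin2, Fzd4 and Dkk2 were called, and without the first KO HFD library Fzd4 and Lgr4.

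The difference between the knockout's effects on the diets was tested as an interaction of genotype and diet, which shares all 8 libraries with the comparisons above. The effect on HFD minus that on NC was called for 2 genes upwards (5.71%) and 3 downwards (8.57%), against 8.69% and 8.73% of all genes. Sfrp1 (2.83 ± 0.54, limma adjusted p = 0.0072) and Tcf7 (1.62 ± 0.49, adjusted p = 0.041) were relatively higher in KO on HFD, and Lgr4 (-1.42 ± 0.25, adjusted p = 0.0059), Fzd4 (-1.30 ± 0.28, adjusted p = 0.011) and Lrp6 (-0.85 ± 0.20, adjusted p = 0.016) were relatively lower. With WT HFD averaged into a single sample, or without the first WT NC or either WT HFD library, 2 calls were left, Sfrp1 and Lgr4, and without the filter on low values 1, Lgr4. Scaled to the same total, the value for Lrp6 was -0.42 and was not called, and after quantile normalization neither Lrp6 nor Tcf7 was called. Tcf7 was also not called with the replicate number as a block, or without the second WT NC, the first KO NC or the second KO HFD library. The value for Sfrp1 ran from 2.20 to 3.46 without the second and the first KO NC library. For Wnt5a the difference was -0.46 ± 0.32 (limma adjusted p = 0.34), so its fall on HFD was not shown to differ from that on NC. The same held for Lrp5 (-0.60 ± 0.21, adjusted p = 0.067), Axin2 (-0.89 ± 0.35, adjusted p = 0.098), Rspo3 (2.22 ± 0.86, adjusted p = 0.093) and Sfrp2 (1.73 ± 0.79, adjusted p = 0.14). Without the first and the second WT HFD library, Rspo3 gave 1.48 and 2.96 and Sfrp2 0.84 and 2.61. Lrp5 was called with a filter at a mean of 50, and Axin2 without the first KO NC library.

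Markers of other cells moved with these groups. The summed adipocyte markers were 424899 and 415966 in WT HFD and 2.64-fold lower in KO HFD by group means, while their group means on NC were 0.973-fold in KO relative to WT. Fzd4, Lgr4 and Axin2 were 4.61-, 3.59- and 2.89-fold lower in KO HFD, and Wnt5a, Lrp5 and Lrp6 2.63-, 2.08- and 1.92-fold. The 10 fibroblast and progenitor markers summed to 24895 and 25450 in WT HFD against 76349 and 87700 in KO HFD (3.26-fold), and 39844 and 33773 in WT NC against 61411 and 38150 in KO NC, where limma called 0 of the 10, with 4 at an unadjusted p under 0.05. Sfrp1, Sfrp2, Rspo1, Rspo3 and Wnt4 were 5.08-, 5.96-, 3.83-, 6.29- and 2.64-fold higher in KO HFD. Macrophage markers summed to 2202 and 2275 in WT HFD, 32591 and 29582 in KO HFD, 4865 and 4807 in WT NC and 29883 and 16436 in KO NC, and all 10 were called higher in KO on both diets. Of the 7 tested endothelial markers 3 rose in KO on HFD, and of the 6 tested mesothelial markers Wt1 rose and Msln fell. Of the 6 smooth muscle and pericyte markers 3 rose and 1 fell, and of the 4 tested lymphocyte markers 2 rose. The part of these cell types in the WNT gene results was not tested.

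**Figure D4:**
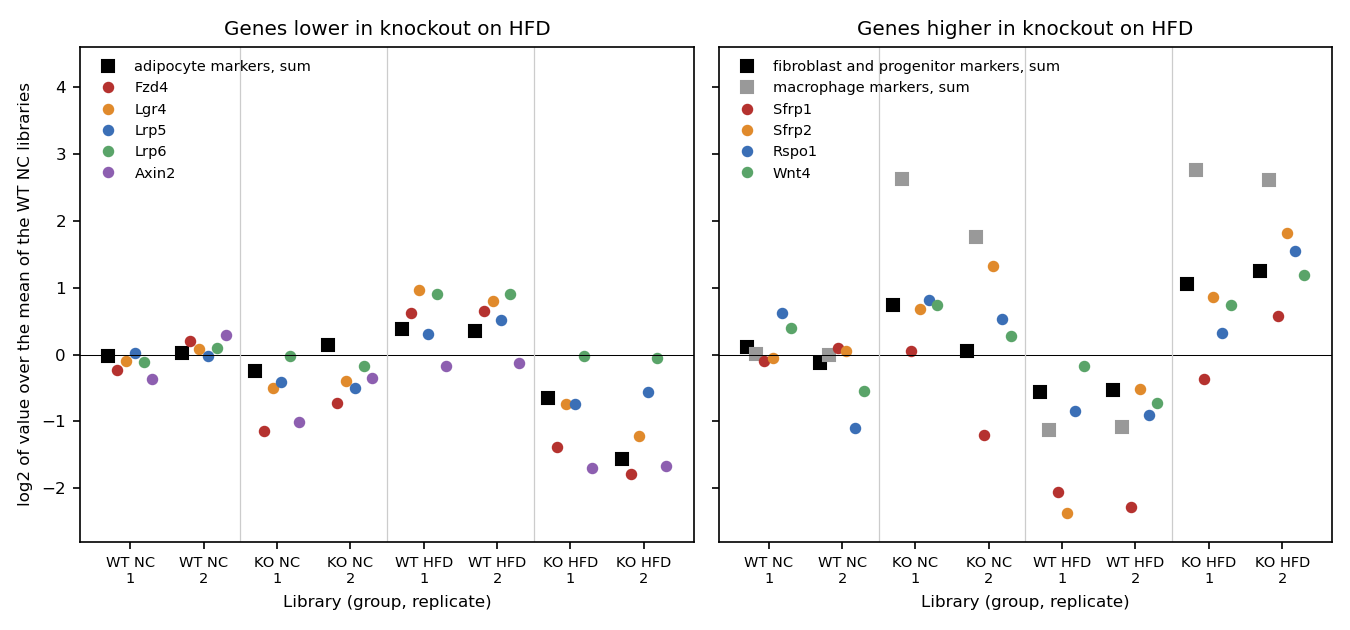
Log2 of each value over the mean of the WT NC libraries, by library, for summed marker lists (squares) and WNT genes (circles). On the left are adipocyte markers and Fzd4, Lgr4, Lrp5, Lrp6 and Axin2, which were lower in KO on HFD. On the right are fibroblast and progenitor markers, macrophage markers and Sfrp1, Sfrp2, Rspo1 and Wnt4, which were higher there. Wnt5a and Rspo3, also called on HFD, are not drawn. Adipocyte markers were lowest in KO HFD (207613 and 110567) and fibroblast and progenitor markers highest there (76349 and 87700).

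The rest of the pathway was read from 7 lists of 64 further tested genes. On HFD 12 of them (18.8%) were higher and 15 (23.4%) lower in KO, against 17.1% and 15.1% of all genes, and on NC limma called 1 higher and 0 lower (3.21% and 1.5% of all genes), with 1 and 5 at an unadjusted p under 0.05. Of 10 further antagonists and modulators tested, 4 (40.0%) were called lower and 1 higher in KO than in WT on HFD. Among all genes 15.1% were lower and 17.1% higher. Apcdd1, a membrane inhibitor that binds ligands and Lrp5, had 5874 and 5914 in WT HFD and 1343 and 708 in KO HFD (log2 fold change -2.59 ± 0.23, limma adjusted p = 4.3e-06). Shisa2, which retains Frizzled proteins inside the cell, had 118 and 171 against 15 and 22 (-2.90 ± 0.50, adjusted p = 0.00079). Trabd2b, a protease that cleaves WNT proteins, had 2977 and 2900 against 682 and 600 (-2.20 ± 0.21, adjusted p = 1.0e-05), and the glypican Gpc4 had 2453 and 2545 against 813 and 545 (-1.91 ± 0.21, adjusted p = 2.3e-05). The gene that rose was the related glypican Gpc3 (315 and 736 in KO HFD against 218 and 218, adjusted p = 0.013), named here after its values were seen. Its log2 fold change ran from 0.53 without the second to 1.75 without the first KO HFD library, and its call was lost under 3 alternatives, WT HFD averaged among them, and without either WT HFD or the second KO HFD library.

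Wls, the carrier that brings WNT proteins to the cell surface, fell in KO on HFD (1381 and 1512 against 878 and 853, log2 fold change -0.74 ± 0.17, limma adjusted p = 0.0048), as did Znrf3, 1 of the 2 ligases that the R-spondins counter (450 and 444 against 304 and 221, -0.78 ± 0.26, adjusted p = 0.032). Both calls were lost after scaling to the same total, after quantile normalization, with WT HFD averaged and without the second WT HFD library, and that of Znrf3 also without the filter and without 4 other libraries. Of 15 destruction complex and Dishevelled genes, 2 were higher and 2 lower in KO on HFD (13.3% each, against 17.1% and 15.1% of all genes). Dvl2, a Dishevelled adaptor, had 179 and 178 in WT HFD and 405 and 419 in KO HFD (1.20 ± 0.22, limma adjusted p = 0.0014), and Tnks2, a tankyrase that destabilizes Axin, had 2704 and 2672 against 1504 and 1529 (-0.83 ± 0.14, adjusted p = 0.00077), a fall under the limit after scaling to the same total and after quantile normalization. Dvl1, the other gene that fell, had 1072 and 1368 against 827 and 750 (-0.62 ± 0.18, adjusted p = 0.020) and was named after its values were seen. The kinase genes Gsk3a and Gsk3b gave 0.62 ± 0.17 (adjusted p = 0.012, called) and -0.53 ± 0.15 (adjusted p = 0.017, under the fold limit). Gsk3b was called higher on HFD in WT (0.63 ± 0.15, adjusted p = 0.014). The calls of Dvl1, of Gsk3a and of Gsk3b in WT were lost with WT HFD averaged, under other scalings and in 2, 3 and 4 of the fits without 1 library, that without the second WT HFD library among them.

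Of 12 nuclear cofactors, 2 (16.7%) rose and 3 (25.0%) fell in KO on HFD, against 17.1% and 15.1% of all genes. The beta-catenin co-activators Bcl9l (3159 and 3179 against 1679 and 1199, log2 fold change -1.16 ± 0.19, limma adjusted p = 0.00050) and Bcl9 (606 and 587 against 313 and 312, -0.93 ± 0.19, adjusted p = 0.0021) fell, and the co-repressors Tle4 (485 and 409 against 775 and 826, 0.84 ± 0.21, adjusted p = 0.0082) and Ctbp2 (393 and 405 against 628 and 664, 0.69 ± 0.18, adjusted p = 0.011) rose. The third that fell, named after its values were seen, was the co-repressor Tle3 (5502 and 5320 against 3436 and 3251, -0.69 ± 0.17, limma adjusted p = 0.0085), so co-repressors were called in both directions. The calls of Tle4, Ctbp2 and Tle3 were lost with WT HFD averaged and without the second WT HFD library, those of Ctbp2 and Tle3 also without the first and that of Ctbp2 without the second KO HFD library. Those of Tle3 and Bcl9 were lost after scaling to the same total, and that of Tle3 after quantile normalization.

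Of 9 tested genes listed as beta-catenin targets, 2 (22.2%) rose and 1 (11.1%) fell in KO on HFD, against 17.1% and 15.1% of all genes, with a median log2 fold change of 0.65 against 0.09 for all genes. Nkd1, a feedback inhibitor that binds Dishevelled, had 121 and 213 in WT NC, 132 and 30 in KO NC, 932 and 1015 in WT HFD and 53 and 115 in KO HFD. It rose on HFD in WT (log2 fold change 2.59 ± 0.56, limma adjusted p = 0.0086), a call lost with WT HFD averaged, without the filter on low values and without the first WT NC or either WT HFD library, and was lower in KO on HFD (-3.62 ± 0.56, adjusted p = 0.00037), in the same direction as Axin2. Cd44, a hyaluronan receptor that is abundant on macrophages, had 868 and 937 in WT HFD and 9286 and 8569 in KO HFD (3.30 ± 0.18, adjusted p = 9.5e-08), and it also rose in KO on NC (2.40 ± 0.18, adjusted p = 7.8e-06). Sox9, a transcription factor of progenitor cells, had 113 and 92 against 444 and 554 (2.27 ± 0.30, adjusted p = 0.00011).

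Among 14 non-canonical receptors and planar polarity genes, 5 (35.7%) rose and 3 (21.4%) fell in KO on HFD, against 17.1% and 15.1% of all genes. Ror2, a receptor for Wnt5a, had 3 and 3 in WT HFD and 21 and 42 in KO HFD (log2 fold change 2.94 ± 0.75, limma adjusted p = 0.0091), and the related Ror1 had 49 and 135 against 274 and 360 (1.93 ± 0.39, adjusted p = 0.0024). Prickle2 had 202 and 104 against 417 and 507 (1.66 ± 0.32, adjusted p = 0.0018), and Ptk7 had 35 and 24 against 76 and 106 (1.60 ± 0.43, adjusted p = 0.012). The call of Ror2 was lost after quantile normalization and without the second KO HFD library, as was that of Ptk7, which was also lost with WT HFD averaged and without the second WT HFD library. The value for Ror1 ran from 1.21 without the first to 2.66 without the second WT HFD library. The 3 that fell, as Wnt5a did, were named after their values were seen. They were the WNT receptor Ryk (1025 and 1071 against 551 and 423, log2 fold change -1.12 ± 0.20, limma adjusted p = 0.00094) and the planar polarity genes Celsr2 (2.58-fold lower by group means, -1.40 ± 0.25, adjusted p = 0.0010) and Vangl1 (335 and 365 against 162 and 220, -0.89 ± 0.24, adjusted p = 0.013). The call of Vangl1 was lost after scaling to the same total, with WT HFD averaged, and without either WT HFD or the first KO HFD library. On HFD in WT, 6 of the 64 further genes (9.4%) rose and 6 fell, near the 8.74% and 9.22% of all genes, among them a fall of Dvl2 (-1.38 ± 0.22, adjusted p = 0.0021) and rises of Wls (0.64 ± 0.17, adjusted p = 0.020) and Apcdd1 (0.80 ± 0.23, adjusted p = 0.029). The calls of Wls and Apcdd1 there were each lost under 4 alternatives, WT HFD averaged among them, and without any 1 of the WT libraries.

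The 20 tested WNT genes that were called in no comparison were led, by mean normalized count, by Ctnnb1 (5071), Axin1 (817), Fzd5 (661), Fzd7 (597), Fzd1 (371) and Fzd8 (186). Fzd5 and Fzd1 had log2 fold changes of -0.24 ± 0.17 and -0.21 ± 0.20 between KO and WT on HFD, and both signs turned after scaling to the same total (0.15 and 0.18). Ctnnb1 and Fzd5 share 14.6% and 17.8% of their exon bases with a gene on the other strand.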

How the data were processed

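Single-end reads had been trimmed by the authors (Reaper), mapped to GRCm38 (STAR 2.5.2b), counted on exons per gene with featureCounts 1.5.1, leaving out reads that hit several genes or places, and normalized with DESeq2 1.14.1. The deposited score is this count after scaling of each library by its size factor and rounding, and is called a normalized count here. Rounding kept whole reads from being recovered for every gene, so limma 3.58.1 (R 4.3.3, eBayes with trend) was run on log2 of the value plus 1, in which folds of low genes are understated. The model had a mean for each of 4 groups (degrees of freedom: 4 residual, 8.59 prior). It was tried on simulated data with the same noise in every library, unlike the libraries here, so that trial is no test of the calls. Depth was estimated from the spacing of low values. Intervals of fold changes come from limma and rest on the spread between libraries, whereas the floor of 3 reads covers counting error only, since amplified reads are not independent molecules.

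The members were set by symbol, and the limits are those of the study's methods. Members, lists and limits were all chosen with earlier results of these data known. Genes called in at least 1 comparison are given per library, the 6 highest by mean of those never called are named, as are all under the filter, and up to 4 called genes per pathway list with the largest called change in any comparison, the interaction included; others are said to be named after their values were seen. Positions come from the deposited table and exon lengths and overlaps from the annotation of GRCm38. Promoters are RefSeq's for GRCm38.p6. Alternatives were other pseudocounts (0.1 and 8), filters, scalings, eBayes settings and samples, a fit of only the groups compared, the replicate number as a block, the WT HFD libraries averaged, and each library left out. Figures were drawn with matplotlib 3.10.9 in Python 3.11.15, with numpy 2.4.6 and pandas 2.3.3.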

Additional observations from a re-analysis of the deposited data

Results flagged for a closer look

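By the interaction test 5 WNT genes were called, 2 upwards (5.71%) and 3 downwards (8.57%), against 8.69% and 8.73% of all genes. The difference is given as the log2 fold change on HFD minus that on NC. It was -1.42 for Lgr4, -1.30 for Fzd4 and -0.85 for Lrp6, and 2.83 for Sfrp1 and 1.62 for Tcf7 (limma adjusted p from 0.0059 to 0.041), and the calls of Fzd4, Lrp6 and Tcf7 were lost with the WT HFD libraries averaged. The Tcf7 libraries of KO NC, 94 and 173, and those of KO HFD, 110 and 130, overlapped, while those of WT did not (240 and 187 on NC, 71 and 58 on HFD). Summed adipocyte markers were 320913 and 330828 in WT NC, 273319 and 360809 in KO NC, 424899 and 415966 in WT HFD and 207613 and 110567 in KO HFD. Their part in these differences was not tested.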

How the results depend on the processing

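The 11 calls between KO and WT on HFD stayed between 9 and 15 under all alternatives and leave-one-out fits, and Fzd4, Lgr4, Axin2, Wnt5a, Lrp5, Rspo3, Sfrp2 and Sfrp1 kept their calls in each. On NC 2 calls became 0 without the filter on low values, with only the 2 groups compared and with the WT HFD libraries averaged, and leaving out each library gave 0 to 2. For HFD against NC in WT 10 calls became 6 without the filter and 3 with WT HFD averaged, with 2 to 11 when each library was left out. In KO they were 0, with 0 to 3 when each library was left out. The 5 interaction calls became 1 without the filter, 3 after quantile normalization and 2 with WT HFD averaged, with 2 to 7 when each library was left out. A group left with 1 library was assumed to vary like the others. The replicate numbers did not pair the samples (correlations of their deviations from -0.107 to 0.040), and with the replicate block 10, 2, 9, 0 and 4 genes were called in the order of the comparisons above. Not every uncalled value was followed through the alternatives. Of the values followed, only uncalled ones changed sign. Between KO and WT on HFD these were Ctnnb1 (0.17 and 0.18), Axin1 (0.29 and 0.027), Fzd5 (0.15) and Fzd1 (0.18), under other scalings. On NC they were Lrp6 (-0.19 to 0.015), Sfrp1 (-1.20 to 0.059) and Rspo3 (-0.12 to 1.04), when each library was left out. Scaling to the same total moved the median of all genes from 0.09 to 0.47 on HFD and from -0.08 to -0.48 between diets in WT, and the share of calls that were higher from 53.1% to 77.2% and from 48.7% to 11.6%. The cause of these shifts was not tested.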
